A study of Mus musculus with 24 samples.

Results

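The 193 exon probe sets described here, which belong to 93 genes, gave more signal in mouse cerebellum than in skeletal muscle relative to the gene-level signal of their own gene. They were chosen by measured values. For each probe set, an index was taken as its log2 signal minus the log2 signal of its gene on the same array, and a probe set was kept if its mean index in wild-type cerebellum exceeded that in wild-type skeletal muscle by 2 or more. The gene also had to have a mean log2 signal of 7 or more in both wild-type groups, and the probe set had to reach 7 in wild-type cerebellum. Of 229581 probe sets in the series, 171647 had 1 gene symbol and a gene-level value, and 32482 in 2614 genes passed the level minimums. The opposite difference, of -2 or lower with the same minimum for the gene, was found for 90 probe sets in 51 genes. The values in wild-type arrays are therefore descriptions, and the tissue difference was tested in the *Usp15*-deficient arrays, which the choice did not use.

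A gene can give rise to several mRNAs through alternative promoters, alternative splicing and alternative ends of transcription. Brain and striated muscle are known for tissue-specific exon use, which gives proteins of the cytoskeleton, of membrane traffic and of signalling a neuronal and a muscle form. The index compares a stretch of exon with the gene that holds it, and does not name the transcript behind the signal.

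The samples were cerebellum and skeletal muscle of C57BL/6 mice aged 1 month, either wild-type or deficient for *Usp15*, which encodes a deubiquitinating enzyme. Each of the 4 groups held 3 arrays, 12 in all, and every array of total RNA was summarised at the gene level and at the exon level as log2 signals. Whether the arrays of a group stand for different mice is not stated in the labels, so a p-value covers the spread among these samples only, and the number of arrays limits the precision. For the *Usp15* allele, the labels give no Cre line, promoter or treatment.

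The labels were checked on the arrays. The gene-level log2 signal of *Usp15* averaged 7.60 for wild-type cerebellum against 7.08 for deficient cerebellum, and 8.67 against 6.80 for muscle. At the exon level the fall was uneven. In cerebellum, *Usp15* probe sets 4427559 and 4842622 fell most, from 7.38 to 3.38 and from 7.97 to 3.12, while 5238353 read 7.37 and 7.43. In muscle the same probe sets read 9.55 and 2.25, 9.45 and 2.03, and 8.06 and 6.78. Of the cerebellum markers, 9 of 9 measured were higher in every cerebellum array than in any muscle array, and 7 of 7 measured muscle markers were higher in every muscle array. Arrays of the same tissue correlated at 0.950 or higher. Some markers of other cells moved with the tissue as well. Both endothelial markers (*Cdh5* and *Pecam1*) and 1 of 2 immune markers were higher in every muscle array. The red blood cell marker *Alas2* did not separate the tissues. Its log2 signal ranged from 6.01 to 6.79 over the cerebellum arrays and from 6.08 to 7.31 over the muscle arrays. The mean log2 signal of the endothelial markers was 6.48 to 6.57 on the cerebellum arrays and 8.46 to 9.29 on the muscle arrays, and that of the immune markers was 5.12 to 5.39 and 5.39 to 6.85. The part of these cells in the results was not tested. In such bulk samples, fewer cells of a type and less RNA per cell cannot be told apart.

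The tissue difference was present in the *Usp15*-deficient arrays for every member. With limma over all 171647 probe sets, 193 of 193 members had a higher index in *Usp15*-deficient cerebellum than in *Usp15*-deficient muscle, with Benjamini-Hochberg adjusted p-values from 0.00014 to 0.0394. The same call was made for 9.54% of all probe sets tested and for 6.33% of those past the level minimums. With 1 of the 6 arrays left out, 187 to 192 of the members passed. In the *Usp15*-deficient arrays the 3 cerebellum values lay above all 3 muscle values for 193 members, against 19.7% of all probe sets. The median difference of the members was 2.64 on the log2 scale, with a range from 1.19 to 5.95, and the median over all probe sets was -0.0078. Both genotypes were measured with the same probe sets, so this is a repeat on other samples and not with other probes.

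On single arrays, the median index of the members lay between 0.28 and 0.38 in the 6 cerebellum arrays. In the 6 muscle arrays it lay between -2.63 and -2.39. The typical member thus read close to its gene in cerebellum and well below it in muscle. The rule set a minimum for the probe set in cerebellum only and asked for an index gap of 2 or more. This pattern therefore follows in part from the choice of the members. Over the 3 arrays of a group, a member's index had a median SD of 0.20 and 0.17 in the cerebellum groups (wild-type, then *Usp15*-deficient) and of 0.29 and 0.26 in the muscle groups. If the rule was applied to the *Usp15*-deficient arrays instead, it gave 201 probe sets, and 164 were shared, which is 85.0% of the wild-type list and 81.6% of the *Usp15*-deficient list.

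**Figure D1:**
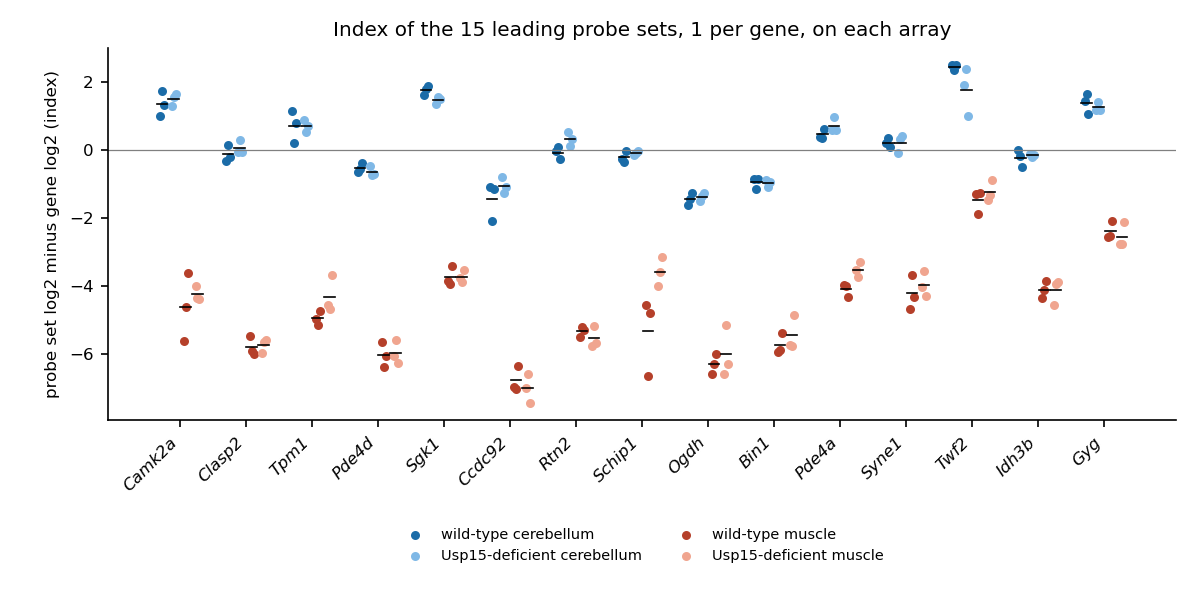
Index (probe set log2 minus gene log2, vertical axis) of the 15 leading probe sets, 1 per gene (horizontal axis), on each of the 12 arrays, with points for arrays and bars for group means. In every gene shown, the 6 cerebellum points lie above the 6 muscle points, and the difference of the wild-type means runs from 5.96 in *Camk2a* to 3.78 in *Gyg*.

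**Figure D2:**
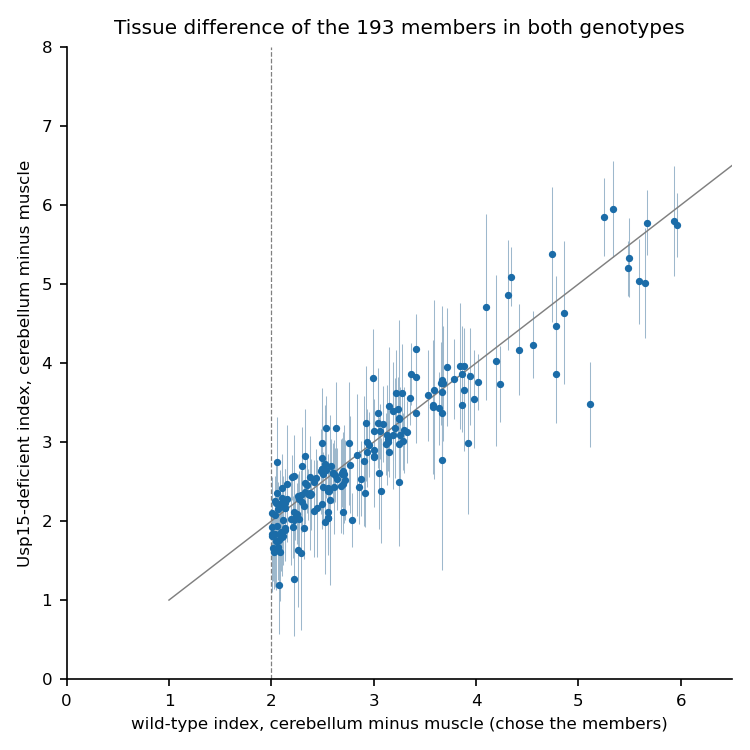
Tissue difference of the index (cerebellum minus muscle, log2) of the 193 members in wild-type arrays (horizontal axis, which chose them, dashed line at 2) and in *Usp15*-deficient arrays (vertical axis, with 95% confidence intervals). The solid line marks equal values, and all 193 *Usp15*-deficient values lie between 1.19 and 5.95.

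The members were spread unevenly over the genes. A single member was found in 65 genes and at least 3 in 19 genes, which together held 110 members. *Syne1*, *Camk2a* and *Itsn1* held 47 members, or 24.4%. Mainly because of *Syne1*, this share fell to 14.2% with the median of the gene's other probe sets as the reference and to 14.7% with the mean of its clusters. With that median, *Syne1* had 4 members and *Camk2a* 10 in place of 13. With the mean of clusters, *Syne1* lay under the level minimum, so the 14.7% is not a result about the index. Probe sets of 1 gene share its transcripts and its gene-level value, so they do not count as independent.

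*Camk2a*, which encodes the alpha subunit of calcium/calmodulin-dependent protein kinase, a major kinase of synapses, held 13 members among 31 probe sets. In skeletal muscle the same locus is known to make a short anchoring protein from an internal promoter, which lacks the kinase domain. The gene-level value hardly differed between the tissues, with 8.02 in wild-type cerebellum and 8.05 in wild-type muscle, and in *Usp15*-deficient arrays the difference of 0.39 did not pass (adjusted p = 0.0738). Its probe sets fell on opposite sides. Probe set 4565848 had log2 signals of 8.63, 9.94 and 9.53 in wild-type cerebellum and of 2.53, 3.58 and 4.21 in wild-type muscle. On the *Usp15*-deficient arrays it read 9.20, 9.98 and 10.05 in cerebellum and 3.96, 3.49 and 3.37 in muscle. The tissues were far apart on this probe set in both genotypes, and the index differed by 5.96 on wild-type arrays and by 5.75 ± 0.17 (SE) in *Usp15*-deficient arrays (adjusted p = 0.00014). Over the 13 members, the difference ran from 2.27 to 5.96 on wild-type arrays and from 2.11 to 5.80 on *Usp15*-deficient ones. A further 13 probe sets of *Camk2a* went the other way by 2 or more. The most extreme, probe set 4539395, read 5.85, 6.61 and 6.03 in wild-type cerebellum but 11.5, 11.6 and 11.3 in wild-type muscle. The difference of its index between the *Usp15*-deficient tissues was -5.56 ± 0.25 (SE, adjusted p = 0.00024). The *Camk2a* probe sets thus split into a set favoured in each tissue, and the members themselves lay between 3.44 and 7.25 in wild-type muscle.

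*Syne1*, which encodes nesprin-1, a giant spectrin-repeat protein of the nuclear envelope whose human gene is known for a recessive cerebellar ataxia, held 24 members among 55 probe sets. Probe set 4766931 had log2 signals of 10.22, 10.02 and 9.82 in wild-type cerebellum and of 3.22, 4.30 and 3.60 in wild-type muscle. The *Usp15*-deficient arrays gave 10.10, 9.95 and 10.11 in cerebellum and 4.34, 4.58 and 3.80 in muscle. All cerebellum arrays were thus near 10 and all muscle arrays below 5, and the index differed by 4.17 ± 0.24 (SE) in *Usp15*-deficient arrays (adjusted p = 0.00036). Over the 24 members the difference ran from 2.09 to 4.42 on wild-type arrays and from 2.22 to 4.71 on *Usp15*-deficient ones, with a median of 0.22 for the other 31 probe sets of the gene in wild-type arrays. This result depends on the reference. The symbol *Syne1* has a pair of gene-level clusters. The one used read 9.81 in wild-type cerebellum and 7.92 in muscle, and the other 9.94 and 5.44. With the median of the gene's other probe sets as the reference, 4 of the 24 were selected. For each member, those other probe sets include the remaining members, which pull the reference toward them. The fall to 4 is thus in part built in. With the mean of both clusters 0 of the 24 were selected, but that mean also served as the gene level. In wild-type muscle the mean of 7.92 and 5.44 lay under the minimum of 7, so no *Syne1* probe set could be selected. This 0 is therefore not a result about the index. The low muscle signal of the members itself, from 3.30 to 6.82 in wild-type arrays, does not rest on the choice of reference.

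*Itsn1*, which encodes intersectin-1, a scaffold of endocytosis with a long form found mainly in neurons, held 10 members among 49 probe sets. Probe set 5115644 read 9.25, 9.21 and 9.07 in wild-type cerebellum and 4.16, 4.30 and 5.33 in wild-type muscle. In *Usp15*-deficient arrays it read 9.06, 9.20 and 9.15 in cerebellum and 3.56, 4.63 and 5.12 in muscle. Cerebellum was steady and muscle more spread, and the index differed by 3.45 ± 0.35 (SE, adjusted p = 0.0021) in the *Usp15*-deficient arrays. The other 39 probe sets of *Itsn1* had a median difference of -0.70 in wild-type arrays, and 0 of them reached -2. Ranked by wild-type difference, most *Itsn1* probe sets lay between -1.39 and -0.33, with values of 0.22, 1.02, 1.43 and 1.95 between these and the members. The rank in the plot is not a position along the gene.

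**Figure D3:**
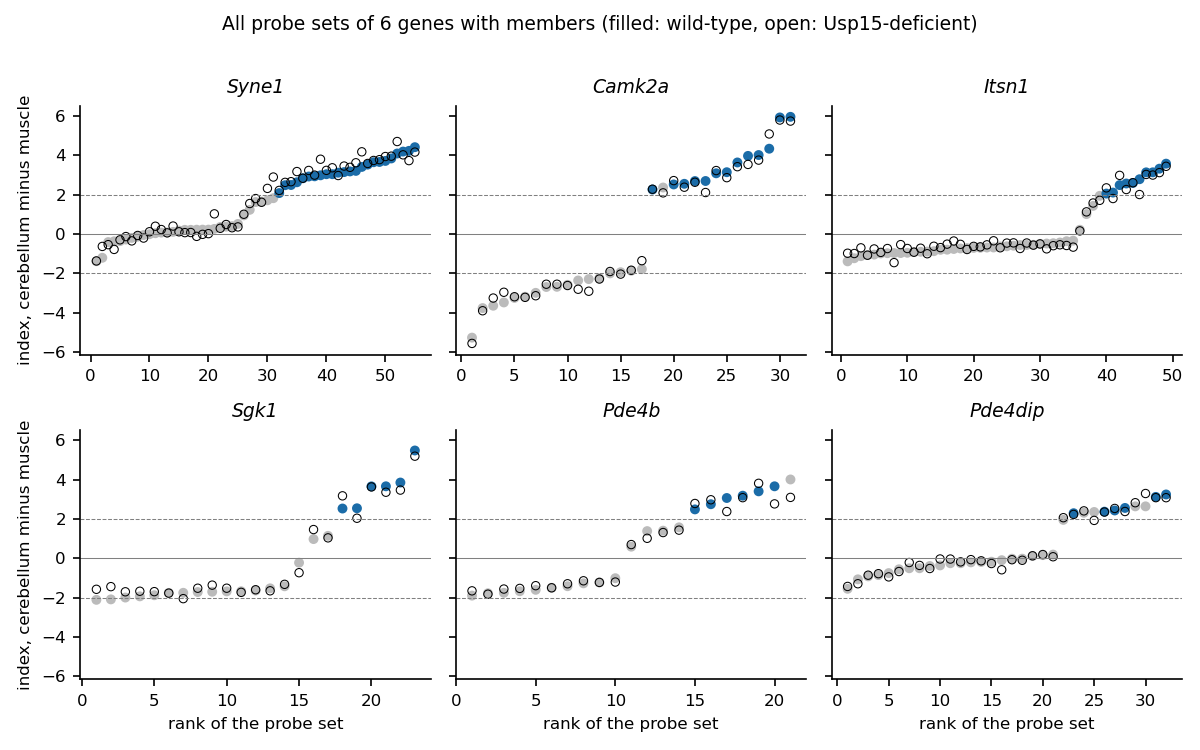
Tissue difference of the index (cerebellum minus muscle, log2, vertical axis) for all probe sets of *Syne1*, *Camk2a*, *Itsn1*, *Sgk1*, *Pde4b* and *Pde4dip*, ranked by the wild-type value. Filled points are wild-type means (blue for members, grey for other probe sets), open circles are *Usp15*-deficient means, and dashed lines mark 2 and -2. *Camk2a* has 13 members above the upper line and 13 probe sets below the lower one, and grey points above the upper line had a wild-type cerebellum mean under 7.

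*Pde4a*, *Pde4b* and *Pde4d* encode phosphodiesterases that degrade cAMP and are known to use several promoters, which give long and short forms. *Pde4d* held 4 members. Its probe set 4741998 read 8.01, 7.90 and 8.14 in wild-type cerebellum and 4.0, 3.79 and 3.63 in wild-type muscle, while the gene-level cluster used as the reference read 8.55 and 9.83. The other *Pde4d* cluster went the opposite way, at 7.46 in wild-type cerebellum and 4.62 in muscle. In the *Usp15*-deficient arrays the probe set read 8.16, 7.93 and 7.89 in cerebellum and 3.81, 4.19 and 3.40 in muscle. Against the reference cluster the index differed by 5.33 ± 0.21 (SE, adjusted p = 0.0002). *Pde4b* held 6 members with differences of 2.38 to 3.82 in *Usp15*-deficient arrays, and its other probe sets had a median of -1.22. The call of 1 of the 6, 4560365, was lost without any 1 cerebellum array or without muscle replicate 2. Probe set 5058108 of *Pde4a* read 7.49, 7.55 and 7.90 in wild-type cerebellum and 3.81, 4.04 and 3.58 in wild-type muscle. Its difference was 4.23 ± 0.17 (SE, adjusted p = 0.00022) in the *Usp15*-deficient arrays. *Pde4dip*, which encodes myomegalin, a protein that binds phosphodiesterase and the centrosome, held 6 members with a different picture. The gene was higher in muscle, at 8.39 against 11.28, and its members were nearly level between the tissues: probe set 4433447 read 6.93, 7.39 and 8.06 in wild-type cerebellum and 6.84, 7.27 and 7.17 in wild-type muscle. With the mean of all clusters of the symbol as the reference, 2 of the 4 *Pde4d* members and 0 of the 6 *Pde4dip* members were selected. That mean also served as the gene level. The *Pde4dip* clusters read 8.39, 6.40 and 6.11 in wild-type cerebellum, and their mean lay just under the minimum of 7. The 0 for *Pde4dip* is therefore not a result about the index.

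*Sgk1*, a serum- and glucocorticoid-regulated kinase that controls ion channels and is known for variants with different first exons, held 6 members among 23 probe sets. Probe set 5463222 read 9.29, 9.42 and 9.77 in wild-type cerebellum and 4.12, 4.11 and 4.28 in wild-type muscle. The *Usp15*-deficient arrays gave 9.62, 9.35 and 9.57 against 4.19, 4.22 and 4.15. The arrays of a tissue were within 1 log2 unit of each other, and the index differed by 5.2 ± 0.14 (SE, adjusted p = 0.00014). The gene was nearly equal, at 7.73 and 7.90 in the wild-type tissues, and its other 17 probe sets had a median difference of -1.69. *Nedd4l*, a ubiquitin ligase that acts on ion channels and is a known target of *Sgk1*, held 4 members with differences of 2.81 to 3.62 in the *Usp15*-deficient arrays.

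A high index in cerebellum can come from a probe set that is higher in cerebellum or from a gene that is higher in muscle, and both were found. In wild-type arrays, 112 members in 40 genes had a probe set signal at least 2 log2 units higher in cerebellum, and 26 were higher by 1 to 2 units. The probe set signal of 50 members in 38 genes differed by less than 1 unit, with a median of 0.29, while their genes were lower in cerebellum, with a median of -2.18. A further 5 members, all in *Col1a1* and *Col1a2*, were lower in cerebellum by more than 1 unit. On the *Usp15*-deficient arrays the probe set signal of 147 members was higher in cerebellum by limma, against 39% of all probe sets, and that of 9 was lower, against 14.2%. The rule asked for a probe set level in cerebellum only and for a higher index there. It thus favours probe sets with more signal in cerebellum, and nothing further is read from these shares. The tissues were not on a common level, since the deposited signal of the median probe set was 0.46 log2 units higher in *Usp15*-deficient cerebellum than in muscle. After quantile normalization this shift was -0.03, and the wild-type classes held 105, 29, 54 and 5 members.

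The genes of the members leaned the other way from the members. At the gene level, 23 of the 93 genes were higher in *Usp15*-deficient cerebellum than in muscle, where 57% of all 23332 clusters were, and 59 were lower, where 12.9% of all clusters were. The rule subtracts the gene value from that of the probe set, so it favours genes that are lower in cerebellum, and nothing further is read from these counts. In wild-type muscle 46 members had a mean log2 signal under 5, and 64 had 7 or more, so a favoured probe set was not always one with a low signal in muscle.

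**Figure D4:**
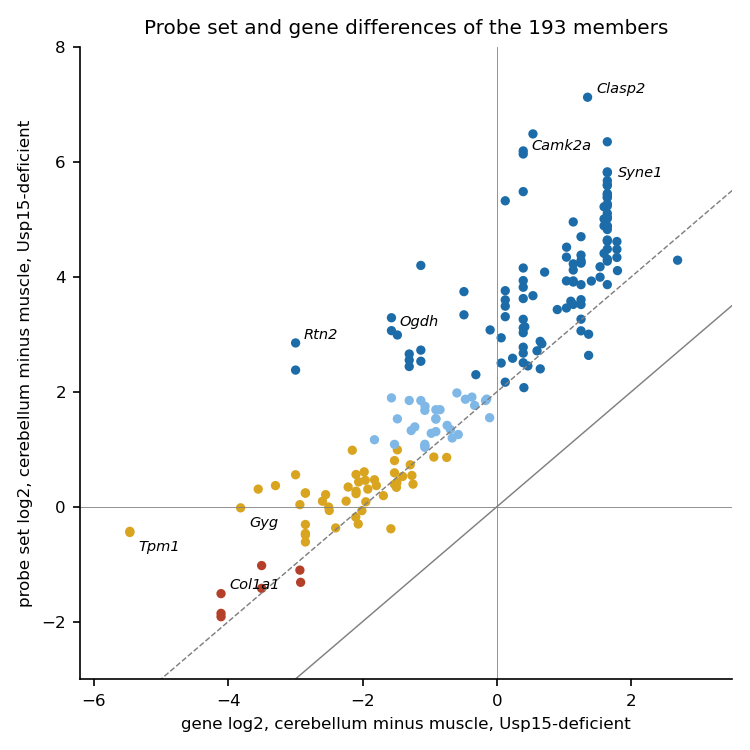
Difference between cerebellum and muscle in *Usp15*-deficient arrays (log2) of the gene (horizontal axis) and of the probe set (vertical axis) for the 193 members. The solid line marks equal differences and the dashed line an index difference of 2; dark blue points are probe sets 2 or more higher in cerebellum, light blue 1 to 2 higher, yellow within 1, and red 1 or more lower, which include *Col1a1*.

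Both kinds were found among members in cytoskeletal genes. *Clasp2*, which encodes a protein of growing microtubule ends, had 1 member among 45 probe sets, 5207664. It read 8.88, 9.26 and 8.95 in wild-type cerebellum and 2.36, 2.27 and 2.11 in wild-type muscle. The *Usp15*-deficient arrays gave 9.14, 9.49 and 9.28 against 1.90, 2.36 and 2.27. The index differed by 5.78 ± 0.17 (SE, adjusted p = 0.00014), while the gene read 9.15 and 8.04 in the wild-type tissues. *Tpm1*, which encodes tropomyosin 1 and is a textbook case of alternative exons, was the reverse case. Its gene value was 7.61 in wild-type cerebellum and 13.00 in muscle, and probe set 4425421 stayed level at 8.70, 7.81 and 8.45 in wild-type cerebellum against 8.06, 7.79 and 8.31 in muscle. In *Usp15*-deficient arrays this probe set read 8.68, 8.08 and 8.15 against 8.48, 8.35 and 9.41. The groups overlapped in the probe set signal, but not in the index, which differed by 5.02 ± 0.29 (SE, adjusted p = 0.00038). *Twf2*, which encodes the actin-binding protein twinfilin-2, had a member, 4306250, at 9.59, 9.64 and 9.86 in wild-type cerebellum and 7.92, 7.35 and 7.68 in muscle. In *Usp15*-deficient cerebellum it read 9.53, 9.53 and 8.16, so 1 array stood lower than the others, and the difference of the index was 2.99 ± 0.37 (SE, adjusted p = 0.004). Smaller differences in the *Usp15*-deficient arrays were found for *Ank3*, which encodes ankyrin-G of the axon initial segment (2.53), *Itgb1*, the integrin beta-1 subunit (2.42), *Kif1b*, a kinesin that carries vesicles and mitochondria along axons (2.23), and *Myo18a*, an unconventional myosin (2.16). *Ablim3*, an actin-binding LIM protein, held 3 members with 2.42 to 3.31.

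Several members lay in genes of membrane shape and traffic or of adhesion complexes, put side by side here after the selection. *Bin1* encodes amphiphysin 2, which bends membranes, with a brain form that binds clathrin and a muscle form that builds the transverse tubules. Its probe set 5499601 read 8.34, 8.23 and 8.55 in wild-type cerebellum and 4.71, 4.96 and 5.54 in wild-type muscle. In *Usp15*-deficient arrays it read 8.50, 8.22 and 8.46 against 5.05, 5.06 and 6.11. The probe set was higher in cerebellum on all arrays although the gene was higher in muscle, at 9.33 against 10.81, and the index differed by 4.47 ± 0.26 (SE, adjusted p = 0.00039). *Rtn2*, a reticulon that shapes the endoplasmic reticulum, had the same build. Probe set 5096894 read 7.41, 7.80 and 7.5 in wild-type cerebellum and 5.13, 5.51 and 5.22 in muscle, and the gene read 7.64 and 10.62. Its index differed by 5.85 ± 0.20 (SE, adjusted p = 0.00019) in *Usp15*-deficient arrays. *Rtn4*, which encodes the Nogo proteins, held 4 members with 2.22 to 2.60. *Git1* and *Arhgef7*, which encode partners in a complex at adhesions and synapses, had 1 member each, with 3.37 and 2.48. *Erc1*, a scaffold of vesicle release sites, held 2 members, 4994273 and 4628952, with 1.27 ± 0.30 (SE, adjusted p = 0.032) and 1.64 ± 0.30 (SE, adjusted p = 0.014), among the smallest *Usp15*-deficient differences. Both calls were lost when 1 *Usp15*-deficient array was left out, for 5 of the 6 arrays with 4994273 and for 2 of them with 4628952.

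Members in genes of energy metabolism were likewise put side by side after the selection, and of these only *Phkb* was in the list of metabolic genes. *Ogdh* encodes the first component of the 2-oxoglutarate dehydrogenase complex of the citric acid cycle. Its probe set 5006114 read 7.91, 8.36 and 8.52 in wild-type cerebellum and 4.6, 5.02 and 5.21 in muscle. In the *Usp15*-deficient arrays it read 8.03, 8.49 and 8.52 against 4.87, 6.11 and 4.87, with a difference of the index of 4.63 ± 0.37 (SE, adjusted p = 0.00098). The gene was higher in muscle, at 9.70 against 11.24, and the other 27 probe sets had a median difference of 0.07. *Idh3b*, a subunit of the NAD-dependent isocitrate dehydrogenase of the same cycle, held 4 members with 3.15 to 3.96 in *Usp15*-deficient arrays. Probe set 4628259 of this gene read 9.52, 9.40 and 9.08 in wild-type cerebellum and 6.46, 6.85 and 7.14 in muscle. *Gyg*, which encodes glycogenin, the primer of glycogen, was again level at the probe set: 4787045 read 8.49, 8.69 and 8.32 in wild-type cerebellum and 8.52, 8.56 and 8.81 in muscle, where the gene had 7.11 and 11.03. Its index differed by 3.80 ± 0.21 (SE, adjusted p = 0.00034) in *Usp15*-deficient arrays. *Ak1* (adenylate kinase, 3.86) and *Phkb* (the beta subunit of phosphorylase kinase, 2.43) had the same form. *Slc25a3*, the phosphate carrier of mitochondria, is known for mutually exclusive exons in heart and skeletal muscle against other tissues. Its only member, 5171646, read 10.48, 10.61 and 10.73 in wild-type cerebellum and 8.31, 8.39 and 9.10 in muscle, and the index differed by 2.82 ± 0.21 (SE, adjusted p = 0.00077) in *Usp15*-deficient arrays.

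Among channels and pumps, *Atp2a2* encodes a calcium pump of the endoplasmic and sarcoplasmic reticulum with forms that differ at the C-terminus. Its 3 members had differences of 2.55 to 2.83 in *Usp15*-deficient arrays, and 1 of *Atp2a2* was selected without wild-type muscle replicate 3. Probe set 5095083 read 11.07, 10.86 and 10.58 in wild-type cerebellum and 5.34, 5.55 and 6.58 in muscle, and in *Usp15*-deficient arrays 11.13, 10.79 and 10.86 against 5.83, 6.5 and 6.62. The muscle level of the gene was 8.20 on wild-type arrays and 9.05 on *Usp15*-deficient ones. *Kcnma1*, the calcium-activated potassium channel of large conductance, had 1 member, with 2.12. *Cacna2d1*, an auxiliary subunit of calcium channels, had 1 member, 4927882. It was nearly level, at 11.22, 10.99 and 11.28 in wild-type cerebellum and 10.63, 10.64 and 10.52 in muscle, while the gene read 7.53 and 10.20. In *Usp15*-deficient cerebellum it read 11.29, 9.98 and 10.5, and its index differed from muscle by 2.5 ± 0.34 (SE, adjusted p = 0.0053).

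Several members lay at the edges of the measured range. *Ccdc92* probe set 4850027, in a gene that encodes a coiled-coil protein, read 7.25, 6.42 and 7.45 in wild-type cerebellum and 1.17, 0.71 and 1.63 in muscle, against a gene value of 8.48 and 7.94. Its index was negative in both tissues, at -1.44 ± 0.56 (SD, n = 3) in cerebellum and -6.77 ± 0.38 (SD, n = 3) in muscle. The gene has 3 probe sets, 2 of them members, which left too few for a reference made of its other probe sets. At the other end, *Col1a1* probe set 5091437, in the gene of the alpha-1 chain of type I collagen, read 9.44, 9.80 and 9.37 in wild-type cerebellum and 11.03, 11.05 and 10.58 in muscle. It was higher in muscle on every array and still a member, because the gene itself had 7.33 in cerebellum and 11.19 in muscle. In *Speg*, a kinase of striated muscle with 61 probe sets, 4 members differed by 1.91 to 2.61 in *Usp15*-deficient arrays, and 1 of *Speg* was selected after quantile normalization.

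Of the 93 genes, 14 also held probe sets with the opposite wild-type difference, 31 in all. The index was lower in *Usp15*-deficient cerebellum for 31 of 31 by limma, with differences from -5.56 to -1.15. The same call was made for 10.4% of all probe sets and for 5.79% of those whose gene reached the level minimum in both tissues. Besides *Camk2a* with 13, they were *Kif1b* with 3, *Pde4a*, *Sgk1* and *Col1a1* with 2 each, and *Cacna2d1*, *Cbfb*, *Col1a2*, *Erc1*, *Kcna2*, *Rtn2*, *Spag9*, *Tpm1* and *Twf2* with 1 each. In *Kif1b* the strongest reached -3.38 on wild-type arrays and -3.31 on *Usp15*-deficient ones, and in *Cacna2d1* -3.35 and -3.57.

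Deficiency for *Usp15* moved no member past the threshold. The wild-type arrays in these comparisons are the ones that chose the members. In cerebellum, 0 members passed by limma, where 0.000583% of all probe sets did, and 1 member had an unadjusted p below 0.05, where 3.55% did. In muscle, 0 members passed, where 0.00117% did, and 9 had an unadjusted p below 0.05, where 3.77% did. The interaction of genotype and tissue passed for 0 members and for 0% of all probe sets, and 7 members had an unadjusted p below 0.05, where 3.58% of all did. The probe sets that passed, 1 in cerebellum and 2 in muscle, belonged to *Usp15* itself. The median change of the members was -0.05 (range -0.69 to 0.39) for cerebellum and 0.04 (range -0.76 to 1.75) for muscle. The median standard error was 0.17 in cerebellum and 0.24 in muscle. Small changes could not be detected with these arrays, and the largest change of a member, 1.75 in muscle, did not pass either.

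The member with the widest gap between the genotypes was *Schip1* probe set 4306573, in a gene for a schwannomin-interacting protein of axon initial segments. It read 9.28, 9.09 and 9.47 in wild-type cerebellum, against 9.57, 9.39 and 9.40 with the deficiency. The muscle values were 3.69, 2.01 and 3.57 on wild-type arrays and 4.6, 5.07 and 5.14 on *Usp15*-deficient ones. The muscle groups did not overlap, but 1 wild-type array stood far below the other two, and the change of the index of 1.75 had an adjusted p of 1. Its tissue difference was 5.11 on wild-type arrays and 3.48 ± 0.22 (SE) on *Usp15*-deficient ones. The cerebellum marker *Mbp* also did not overlap in muscle, at 6.64 to 6.85 on wild-type arrays and 6.94 to 8.73 on *Usp15*-deficient ones. The mean of all measured cerebellum markers did overlap in muscle, at 4.11 to 4.51 and 4.35 to 4.59. The part of cell composition in the *Schip1* gap was not tested. *Itsn1* probe set 5598999 read 5.94, 5.76 and 5.88 in wild-type muscle and 6.53, 6.42 and 6.29 in deficient muscle, while it stayed between 9.57 and 9.78 in cerebellum. Its index in muscle differed by 0.73 with an adjusted p of 1. Both probe sets were picked after their values were seen.

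**Figure D5:**
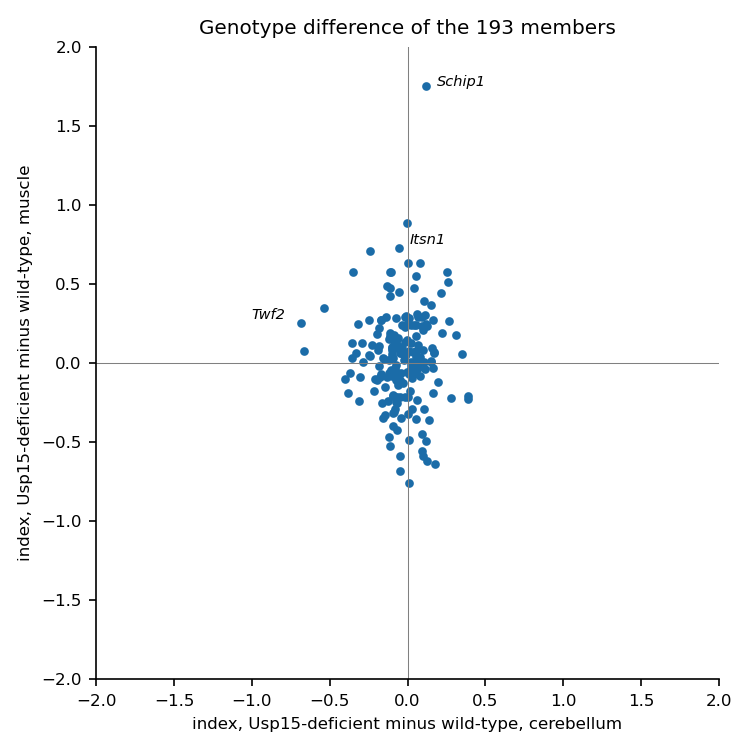
Change of the index (*Usp15*-deficient minus wild-type, log2) of the 193 members in cerebellum (horizontal axis) and in muscle (vertical axis). The points centre near 0, at medians of -0.05 and 0.04, *Schip1* stands at 1.75 in muscle, and 0 of the points passed the adjusted threshold.

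At the threshold, the members just inside were *Ubr3* 4425509 with a wild-type difference of 2.0020, *Bola3* 5172106 with 2.0022 and *Mllt3* 4605222 with 2.0089. Just outside were *Chchd3* 4561478 with 1.9905, *Cacnb1* 4681393 with 1.9699 and *Lpp* 4498839 with 1.9547. On the *Usp15*-deficient arrays 168 of the 193 members kept a difference of 2 or more, and the smallest value was that of *Tmtc1*, a transmembrane protein of the endoplasmic reticulum. Its probe set 5196403 read 8.38, 8.49 and 7.98 in wild-type cerebellum and 8.58, 8.13 and 8.09 in muscle. The *Usp15*-deficient difference of its index was 1.19 ± 0.26 (SE, adjusted p = 0.024), against 2.08 in wild-type arrays, and it missed the threshold when 1 of 5 of the 6 arrays was left out.

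Gene lists of cytoskeleton, traffic, signalling, splicing, transport, contraction and metabolism were drawn from general knowledge of genes with brain- and muscle-type forms. Shares above those of all probe sets could thus follow from how the lists were made. The lists held 20 of the member genes with 57 members, and 73 member genes were in none of them. Among the probe sets past the level minimums, the contractile and tropomyosin list had the highest share with a higher index in *Usp15*-deficient cerebellum. It was 18.3% of 104 probe sets, which came from only 9 genes, with 6.73% lower and a median of 0.07. For the microtubule and motor list the shares were 11.8% of 288 higher and 13.5% lower, with a median of -0.0032. The membrane traffic list had 9.61% of 510 higher and 11.4% lower (median 0.0015), the adhesion and actin linker list 9.31% of 634 and 9.78% (median 0.03), and the signalling list 8.65% of 763 and 9.83% (median -0.02). The ion transport list had 7.29% of 288 higher and 11.8% lower (median -0.03), the metabolic list 8.72% of 172 and 12.2% (median -0.02), and the list of transcription and splicing regulators 8.57% of 350 and 8.29% (median -0.03). Over all 32482 probe sets past the minimums, 6.33% were higher and 5.74% lower, with a median of -0.01. In the last list, the only member belonged to *Qk*, which encodes the RNA-binding protein quaking. Its probe set 5578676 had a difference of 2.09 on wild-type arrays and of 1.86 ± 0.20 (SE, adjusted p = 0.0024) on *Usp15*-deficient ones.

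The genes with members were larger than the genes they were drawn from. In the RefSeq annotation of GRCm38.p6, used here for gene properties only, their median length was 47926 bp against 27614 bp for the 2614 genes past the level minimums. They had a median of 3 curated transcripts against 2, and of 18 probe sets against 13. A gene with more probe sets had more chances to meet the rule, so these values describe the selection.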

How the data were processed

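Total RNA of 12 samples, 3 in each of 4 groups of genotype and tissue, was hybridised to Affymetrix exon arrays for mouse. The deposited values are log2 signals, which the authors summarised per transcript cluster (gene level) and per probe set (exon level) from the same arrays. For background correction, normalization, software and genome build, the sources used here give nothing, so no positions are reported, and no depth applies to arrays. Symbols came from the platform annotation, which names 1 symbol for 14996 of 23332 clusters and 209279 of 229581 probe sets, several for 1019 and 4446, and none for 7317 and 15856. If a symbol had several clusters, the one of highest mean was the reference. There were 0 columns left unused.

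The index was fitted with limma 3.58.1 in R 4.3.3 (lmFit, eBayes, two-sided, Benjamini-Hochberg over 171647 probe sets, threshold 0.05). Confidence intervals are at 95%. The tissue difference used the 6 *Usp15*-deficient arrays, each genotype comparison the 6 arrays of a tissue, and the interaction all 12. Of the probe sets, 488 had an index of 0 on all arrays, with 0 members among them. The fit was also run on simulated arrays with independent noise for each probe set. Probe sets of the same gene share a reference, so that run is no support for the calls. Members, gene lists and tests were chosen with earlier results of these data known.

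Probe sets named were the 15 of largest wild-type difference (1 per gene), up to 6 per gene list (1 per gene), those of the 3 genes with most members, the 3 nearest the threshold on each side, and members with the smallest *Usp15*-deficient difference. Genes with several members, opposite probe sets, *Schip1* and *Itsn1* 5598999 in the genotype comparison, and the fit of the probe set signal were added after the data were seen. Replicate numbers were not used to pair arrays. Alternatives were other thresholds and level minimums, other references for the index, quantile normalization, a prior that was trended and robust (with statmod 1.5.0), a model over all 12 arrays at the same time, replicate numbers entered as a block, and leaving out each array.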

Additional observations from a re-analysis of the deposited data

How the results depend on the processing

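The number of members moved from 193 to 313, 119 and 76 with a threshold of 1.5, 2.5 and 3 on the wild-type difference, and to 125 and 51 with level minimums of 7.5 and 8. It was 287 with a minimum of 6.5, 176 with the median of the gene's other probe sets as the reference, and 157 with the mean of the gene's clusters. That mean also served as the gene level in the minimums. The number was 142 after quantile normalization (138 of them shared), and 183 to 199 when 1 wild-type array was left out. In the *Usp15*-deficient arrays 34191 probe sets differed between the tissues, 16377 of them higher in cerebellum. These counts became 8146 and 4335 with only genes of 7 or more tested, which is fewer genes by construction. Leaving out 1 array gave 19612 to 29382 and 9155 to 14783.

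The correlations of index deviations between same-numbered arrays were 0.037, -0.021 and 0.0039 for the tissues in *Usp15*-deficient and 0.099, -0.038 and 0.070 in wild-type arrays. For cerebellum arrays of both genotypes they were 0.134, 0.138 and 0.068, and for muscle arrays 0.239, 0.053 and 0.091. Not every pair was above 0.1, so the numbers were not taken to pair arrays. In cerebellum, however, each array correlated best with its own number across the genotypes. In muscle this held for all arrays but *Usp15*-deficient replicate 2, at 0.053 with its own number and 0.072 with wild-type replicate 3. These values are a hint from the data and not from the design. With the replicate number as a block, 22514 probe sets differed, 192 members were called, and 0 probe sets passed for genotype in cerebellum and 0 in muscle. For *Sfxn5* 5290203 the block gave an adjusted p of 0.0794.

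Of the members, 186 of 191 were called with the median of the other probe sets as the reference (4 of *Syne1* and *Erc1* 4994273 were not), and 189 of 189 with the gene minimum. Leaving out *Usp15*-deficient cerebellum replicates 1, 2 and 3 left 187, 188 and 188, and muscle replicates 1, 2 and 3 left 192, 190 and 191. The calls lost were those of *Pde4b* 4560365, *Itsn1* 4842439, *Sfxn5* 5290203, *Tmtc1* 5196403 and both *Erc1* probe sets. For *Tmtc1* the adjusted p then rose to between 0.0545 and 0.0783, and for *Erc1* 4994273 to between 0.071 and 0.0977. Of 478 alternatives over the 40 named probe sets, 461 kept direction and call, 17 lost the call and 0 reversed.

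For genotype in cerebellum, 1 probe set passed, with 2 for the median reference, quantile normalization, the gene minimum and the fit of all 12 arrays, 0 for the trended prior, and 0 without any 1 array. In muscle 2 passed, with 0 for the gene minimum and 0 without any 1 array. The gene minimum left *Usp15* itself out of the muscle test, since its mean in *Usp15*-deficient muscle was 6.80. The interaction passed for 0 probe sets, and for 1 without wild-type muscle replicate 3. Of the members 0 passed in these comparisons under every alternative run. The cause of the other changes was not tested. The deposited values carry no detection limit, so the low muscle signals of members cannot be told from background.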
